A study of Drosophila melanogaster with 164 samples.

Results

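Trehalose and glycogen are the circulating and the stored forms of sugar in Drosophila melanogaster, and 7 genes of their metabolism were followed across development: Tps1, Tret1-1, Treh, UGP, GlyS, AGBE and GlyP. The genes were chosen by name, and all 7 were found among the 7414 genes of the count table. The RNA came from whole bodies of inbred Drosophila Genetic Reference Panel (DGRP) lines, which descend from wild-caught flies and have sequenced genomes. The lines carried no inversion, were selected to span a range of starvation resistance, and received no treatment. Adults had matured for 4 days in fresh vials, and their sex was not given in the labels. Larvae were third-instar larvae still feeding in the medium, unsexed, taken when the first wandering larva appeared in the vial. Each of 41 lines gave 2 replicates per stage, reared at 25 °C. Each replicate joined animals of 2 vials, with 2 to 31 animals per sample and a median of 17 adults or 20 larvae. Adults and larvae came from different vials. After 2 larval columns with identical counts were left out, 82 adult and 80 larval libraries remained.

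In insects the fat body makes trehalose, a disaccharide of glucose, and releases it into the hemolymph as the main blood sugar. Glycogen is a branched glucose polymer kept in fat body, muscle and other tissues, and it is built from UDP-glucose and opened again by phosphorolysis. Both routes start from the same pool of glucose phosphates, so synthesis of trehalose and synthesis of glycogen share precursors. Breakdown of glycogen returns glucose-1-phosphate to that pool. Trehalose taken up from the hemolymph is split into glucose by trehalase.

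Library totals had a median of 8670311 counts in adults (2748964 to 20421026) and of 10533564 counts in larvae (2407244 to 26429404). The lowest count of any of the 7 genes in any library was 343, so none was limited by depth. The identical columns were larval DGRP787 replicate 1 and DGRP491 replicate 2. Over 308 genes with adult heritability of at least 0.8, 76 of 80 larval libraries correlated best with the adults of their own line. Replicate 2 of larval DGRP882 matched adult DGRP911 best (r 0.557), replicate 2 of larval DGRP897 matched adult DGRP882 best (r 0.728), and replicate 2 of larval DGRP911 matched adult DGRP897 best (r 0.555), all by label and across genes, which are not independent replicates. Their r with the adults of the labelled line was -0.116, 0.026 and -0.009. They were kept under their labels, and without them no call on the 7 genes changed in the tests between stages, between lines, across stages, between pairs or with marker sums. The other library was larval DGRP367 replicate 1, with r of 0.272 for its own line and 0.396 for DGRP804. Adult libraries came from 7 sequencing pools and larval libraries from 12 others, so pool and stage cannot be told apart in any difference between stages.

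Adults were set against larvae of the same lines to ask how far each gene differs across metamorphosis. Of the 7 genes, 5 were higher in adults and 2 were lower at an adjusted p under 0.05. Among all genes tested 92.8% passed, with 44.9% higher in adults and 47.8% higher in larvae, so passing this test does not set the 7 genes apart. The trehalose genes and the UDP-glucose gene UGP were the ones that rose in adults by the largest amounts, and GlyP, the enzyme that opens glycogen, was lower in adults. A level is given below as CPM, a count scaled by TMM factors to a common library size. Whole bodies were sequenced, so a change in RNA per cell and a change in the share of cells that express a gene cannot be told apart.

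Tps1 (FBgn0027560, chromosome 2L, 4388327 to 4392778 on the plus strand of BDGP6) encodes trehalose-6-phosphate synthase, the enzyme that makes trehalose from UDP-glucose and glucose-6-phosphate. Adult libraries held between 874 and 1998 CPM with a median of 1320.4, against 113 to 476 CPM with a median of 232 in larvae. Every adult library was above every larval library, which was the case for 7.46% of all genes. The means were 1331 ± 268 CPM in adults (SD, n = 82) and 246 ± 82.8 CPM in larvae (SD, n = 80). Adults were 5.50-fold higher, or 2.46 ± 0.05 (SE) as a log2 fold change, and the adjusted p was 8.4e-78 by the edgeR quasi-likelihood F test with the Benjamini-Hochberg adjustment over the table. The difference was positive in 41 of 41 lines, with the smallest in DGRP356 (1.61 log2) and the largest in DGRP362 (3.21 log2).

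Tret1-1 (FBgn0050035, chromosome 2R, 11665768 to 11674782, plus strand) encodes a facilitated transporter that carries trehalose across cell membranes. Its adult libraries spanned 201 to 524 CPM with a median of 333, and its larval libraries spanned 135 to 575 CPM with a median of 239. The ranges overlapped: 2 larval libraries lay above every adult library, and 24 lay below every adult library. Both larval libraries at the top were of DGRP832. The log2 fold change was 0.46 ± 0.04 (adjusted p 3.2e-19 by edgeR), and adults were higher in 38 of 41 lines. Tret1-1 has a close paralog, Tret1-2, which was not measured here, so how the counting treated reads common to both is uncertain.

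Treh (FBgn0003748, chromosome 2R, 21074018 to 21088945, plus strand) encodes trehalase, which splits trehalose into glucose. Adult libraries spanned 375 to 856 CPM with a median of 576, and larval libraries spanned 88.9 to 485 CPM with a median of 211. Of the adult libraries, 71 of 82 were above every larval one. The means were 582 ± 89.8 CPM in adults and 232 ± 86.8 CPM in larvae, and the log2 fold change was 1.40 ± 0.05 (adjusted p 1.6e-56 by edgeR), with adults higher in 41 of 41 lines. On the opposite strand, exons of Rbpn-5 overlap those of Treh over 560 bases. The kit keeps the strand, but whether the counting used it is not given in the sources used here.

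UGP (FBgn0035978, chromosome 3L, 9350867 to 9358935, minus strand) encodes UTP:glucose-1-phosphate uridylyltransferase, which makes the UDP-glucose that Tps1 and GlyS use. UGP stood at 299 to 1090 CPM in adult libraries, with a median of 548, and at 122 to 373 CPM in larval libraries, with a median of 206. Of the adult libraries, 76 of 82 were above every larval one. Adults were 2.76-fold higher, with a log2 fold change of 1.46 ± 0.05 (adjusted p 4.7e-56 by edgeR) and adults higher in 41 of 41 lines. Exons of PGRP-LF and CG32040 overlap those of UGP on the other strand over 644 bases.

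GlyS (FBgn0266064, chromosome 3R, 15141843 to 15147531, minus strand) encodes glycogen synthase, which adds glucose units to a glycogen chain. Its adult and larval ranges nearly coincided, at 137 to 460 CPM with a median of 216 in adults and 131 to 332 CPM with a median of 185 in larvae. Adults were higher in 33 of 41 lines, and both adult libraries were above both larval ones in 15 of the 39 lines with 4 libraries, below both in 4 and overlapping them in 20. The log2 fold change of 0.21 ± 0.04 passed (adjusted p 1.6e-06 by edgeR), at a size of 1.16-fold.

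AGBE (FBgn0053138, chromosome 2R, 13171401 to 13174796, plus strand) encodes the 1,4-alpha-glucan branching enzyme, which puts branches into glycogen. Adult libraries spanned 79.6 to 214 CPM with a median of 123, and larval libraries 82.8 to 281 CPM with a median of 137. Adults were higher in 14 of 41 lines and larvae in 27. The log2 fold change of -0.14 ± 0.05 had an adjusted p of 0.0065 by edgeR. The call rested on replicate 2: without it the log2 fold change was -0.016 (adjusted p 0.818), and without replicate 1 it was -0.25. With pools as the units it was -0.09 (adjusted p 0.272 by limma).

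GlyP (FBgn0004507, chromosome 2L, 2130813 to 2137296, plus strand) encodes glycogen phosphorylase, which releases glucose-1-phosphate from glycogen. Its adult libraries spanned 353 to 1083 CPM with a median of 563, and its larval libraries 395 to 2895 CPM with a median of 938. Of the larval libraries, 28 of 80 were above every adult library. The means were 614 ± 173 CPM in adults and 1015 ± 432 CPM in larvae. GlyP was lower in adults by a log2 fold change of -0.69 ± 0.07 (adjusted p 4.4e-18 by edgeR), with larvae higher in 38 of 41 lines. The exceptions included DGRP441, where GlyP had 883 and 902 CPM in adults and 1057 and 641 CPM in larvae.

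**Figure D1:**
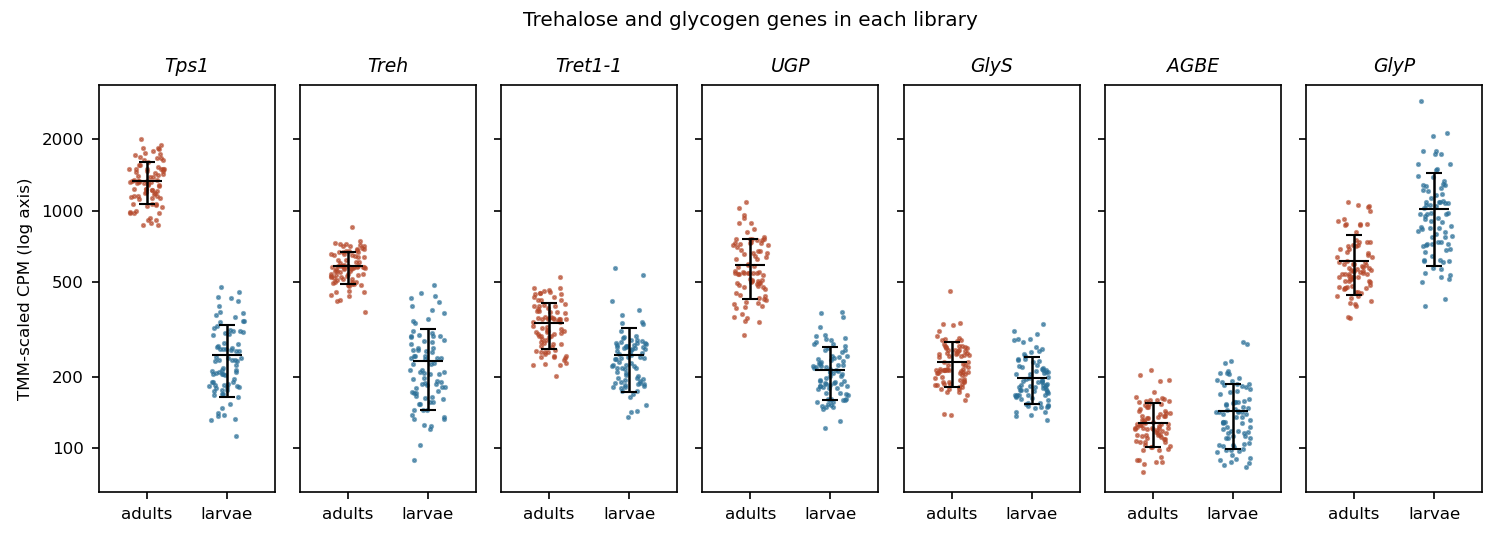
Each point is 1 library, 82 adult and 80 larval, and the vertical log axis gives TMM-scaled CPM for each gene, with black bars for the mean and SD. The stages do not overlap for Tps1, overlap at the edges for Treh and UGP, and share most of their range for Tret1-1, GlyS and AGBE. For GlyP they overlap in part, with 28 of 80 larval libraries above every adult library.

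**Figure D2:**
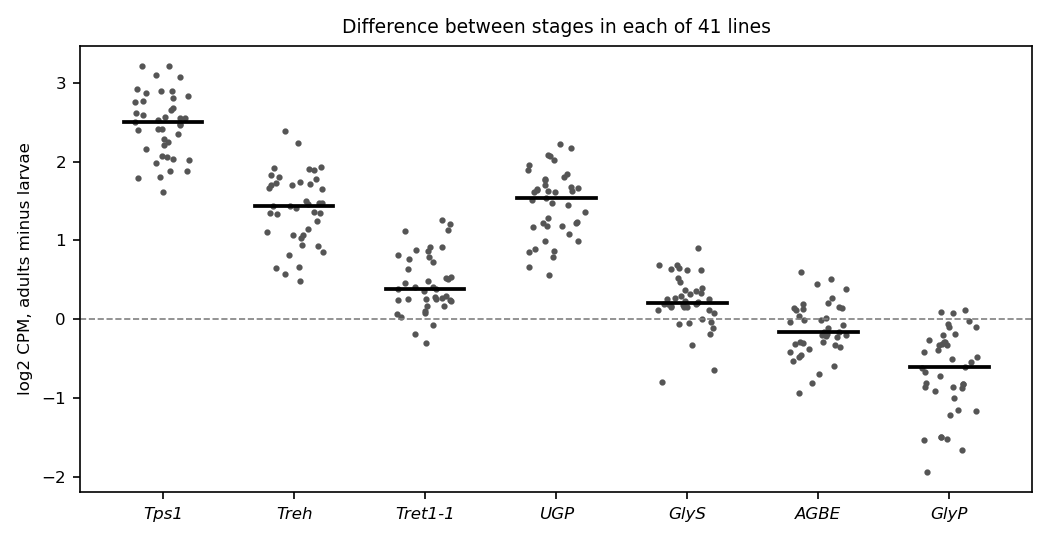
Each point is the log2 CPM of adults minus larvae in 1 of 41 lines, from the mean of the replicates, and the bar is the median over lines. Tps1, Treh and UGP lie above 0 in 41 of 41 lines, GlyP lies below 0 in 38, and AGBE lies on both sides.

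A difference of at least 2-fold was found for 15.0% of all genes in adults and 11.7% in larvae. Among the 7, Tps1 (adjusted p 3.0e-55), UGP (adjusted p 2.4e-16) and Treh (adjusted p 2.5e-14) passed that test in edgeR, all higher in adults. In each of these 3 genes, both adult libraries were above both larval libraries in 39 of the 39 lines with 4 libraries. The share of all genes that do so was not computed, nor was it for the counts of lines given for each gene above. It was also not computed for the counts of libraries beyond the range of the other stage, except for the full separation of Tps1. Counts without such a share therefore do not set the genes apart. For GlyP the adult pair lay below the larval pair in 24 of 39 lines, and in 15 the pairs overlapped. For AGBE the adult pair was above in 8 lines, below in 12 and overlapping in 19.

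Per kilobase of merged exons, the order of levels differed between the stages. In adults Tps1 was highest, at 456 ± 91.8 CPM per kb, above UGP in 82 of 82 libraries. UGP at 196 ± 55.4 and GlyP at 195 ± 54.9 CPM per kb could not be ordered, with UGP above GlyP in 46 of 82 adult libraries. Treh at 133 ± 20.6 and Tret1-1 at 99.5 ± 22.0 CPM per kb came next. GlyS at 68.9 ± 15.0 and AGBE at 55.1 ± 11.5 CPM per kb were lowest in adults. Their means lay closer than the SD of GlyS, and GlyS was above AGBE in 68 of 82 adult libraries. In larvae GlyP was highest, at 323 ± 137 CPM per kb, above Tps1 in 80 of 80 libraries. The other larval means lay between 53.0 ± 19.9 for Treh and 84.4 ± 28.4 CPM per kb for Tps1. Each was within 1 SD of its neighbour in the order, so the larval order below GlyP is not resolved. With the length of the longest transcript, Treh was at 174 ± 26.8 in adults and 69.1 ± 25.9 CPM per kb in larvae.

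Ratios within a line compared enzymes that act on the same molecule, and gene length cancels in their difference between stages. GlyS to GlyP sets the gene for building glycogen against the gene for opening it. The log2 ratio of their CPM averaged -1.39 ± 0.29 in adults and -2.27 ± 0.32 in larvae (SD over 41 lines), and it was higher in adults in 41 of 41 lines, by 0.06 to 1.95. The log2 ratio of Tps1 to Treh was 1.18 ± 0.31 in adults and 0.12 ± 0.54 in larvae, and higher in adults in 40 of 41 lines. In larvae it ran from -1.32 in DGRP45 to 1.37 in DGRP787. The log2 ratio of GlyS to UGP was -1.34 ± 0.29 in adults and -0.09 ± 0.26 in larvae, and lower in adults in 41 of 41 lines. How often other pairs of genes keep a direction over the lines was not computed.

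The table held 16 of 21 other genes of trehalose and glycogen metabolism on a list chosen by textbook role. Of these, 11 were higher in adults, 4 were lower and 1 did not pass, where 44.9% of all genes tested were higher and 47.8% lower. The median log2 fold change of the 16 was 1.24, beside -0.03 for all genes tested. The largest change was that of tobi, an alpha-glucosidase gene that in Drosophila is a target of insulin and adipokinetic hormone signalling, at 852 ± 785 CPM in adults and 114 ± 213 CPM in larvae (3.49 ± 0.22 log2, adjusted p 6.7e-31 by edgeR). Gbs-70E, which encodes a glycogen-targeting subunit of protein phosphatase 1, was higher in adults by 1.85 ± 0.05 log2. CG9485, the glycogen debranching enzyme gene, was higher in adults by 1.33 ± 0.05 log2.

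CG5171 and CG5177, genes of the trehalose-6-phosphate phosphatase family, which frees trehalose from its phosphate, changed in opposite directions. CG5171 stood at 104 ± 26.8 CPM in adults and 51.9 ± 70.5 CPM in larvae (1.44 ± 0.13 log2, adjusted p 1.6e-19 by edgeR). CG5177 stood at 168 ± 40.4 CPM in adults and 669 ± 250 CPM in larvae (-1.97 ± 0.07 log2, adjusted p 4.3e-58 by edgeR). Pgm1, the phosphoglucomutase that joins glycogen to glycolysis, had 450 ± 111 CPM in adults and 456 ± 161 CPM in larvae, and its log2 fold change of 0.02 ± 0.06 did not pass (adjusted p 0.739).

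All 13 genes of a list of sugar sensing and hormone signalling were measured, with 8 higher in adults, 4 lower and 1 not passing, and a median log2 fold change of 0.56. Of all genes tested, 44.9% were higher in adults and 47.8% lower, with a median log2 fold change of -0.03. The insulin receptor gene InR was higher in adults, at 68.0 ± 24.9 CPM in adults and 23.2 ± 6.05 CPM in larvae (1.51 ± 0.06 log2). The transcription factor gene foxo, which insulin signalling restrains, was higher in adults by 1.28 ± 0.04 log2. The sugar-induced transcription factor gene sug was lower in adults, at 53.1 ± 21.1 CPM in adults and 138 ± 56.8 CPM in larvae (-1.38 ± 0.08 log2). Each of these 3 passed at an adjusted p of 1.6e-32 or below by edgeR.

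Markers of tissues that make or use these sugars also differed between stages. Beside the marker counts here and below, 44.9% of all genes tested were higher in adults and 47.8% lower. The summed level of 6 fat body markers ranged from 2977 to 10991 CPM in adults and from 4044 to 16612 CPM in larvae, with 2 of 6 higher in adults and 3 lower. Of these, Larp4B (1.56 log2) and FASN1 (0.81 log2) were higher in adults and Lsd-1 (-0.82 log2) was lower. The sum of 9 muscle markers ranged from 6225 to 15373 CPM in adults and from 8264 to 38763 CPM in larvae, with 2 of 9 higher in adults and 6 lower. Act57B (-2.92 log2) and Tm1 (-1.996 log2) were lower in adults, and sls (2.73 log2) was higher, and each marker named here or below passed at an adjusted p under 0.05 by edgeR. The sum of 7 midgut markers ranged from 3399 to 19189 CPM in adults and from 13462 to 78762 CPM in larvae, with 2 of 7 higher in adults and 5 lower (Jon99Cii at -3.69, Mal-A1 at 3.47 and Jon65Aiv at -3.46 log2).

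All 5 nervous system markers were higher in adults, with sums from 1975 to 4652 CPM in adults and from 496 to 854 CPM in larvae (cpx at 3.84, nSyb at 3.47 and Atpalpha at 2.05 log2). So were all 3 oenocyte markers, with sums from 19566 to 52139 CPM in adults and from 1241 to 4973 CPM in larvae (Cyp4g1 at 6.78, FASN2 at 5.15 and Desat1 at 0.20 log2). Of 6 hemocyte markers, 1 was higher in adults and 4 were lower, with sums from 252 to 946 CPM in adults and from 598 to 3167 CPM in larvae (Col4a1 at -1.61, vkg at -1.14 and Pxn at -0.71 log2). All 4 male markers were higher in adults, with sums from 3627 to 6920 CPM in adults and from 73.2 to 1051 CPM in larvae (Est-6 at 6.05, loopin-1 at 4.24 and S-Lap1 at 4.17 log2). Of 6 female tissue genes 0 were measured. The part that tissue make-up has in the stage differences of the 7 genes was not tested.

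Differences between lines were tested within each stage, over 2 replicates per line. All 7 genes differed between lines in both stages by the edgeR F test, where 68.5% of all genes passed in adults and 46.6% in larvae. Their adjusted p ran from 2.7e-07 for Tret1-1 to 0.0104 for AGBE in adults, and from 3.1e-09 for Treh to 0.0252 for AGBE in larvae. With sequencing pool as a factor in larvae, AGBE (adjusted p 0.0888) and GlyP (adjusted p 0.0651) no longer passed. The broad-sense heritability, the share of the variance of log2 CPM that lies between lines, had a median over all genes of 0.390 in adults and 0.287 in larvae.

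Of the 7 genes, Treh had the widest range of line means in larvae. Its heritability was 0.575 ± 0.110 in adults (jackknife SE over 41 lines) and 0.788 ± 0.075 in larvae, and in larvae it lay above that of 97.9% of all genes. Line means spanned 1.86-fold in adults and 4.80-fold in larvae. At the top in larvae stood DGRP45, with 574 and 727 CPM in adults and 485.5 and 438 CPM in larvae. At the bottom in larvae stood DGRP149, with 483 and 527 CPM in adults and 103 and 88.9 CPM in larvae. The larvae of these lines lay further apart than their replicates did, and their adults lay closer to each other. The adult extremes were DGRP427, with 641 and 856 CPM in adults and 239.5 and 205 CPM in larvae, and DGRP357, with 375.5 and 420.2 CPM in adults and 238.5 and 213 CPM in larvae.

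Tret1-1 had the highest heritability of the 7 genes in adults, at 0.703 ± 0.080 in adults and 0.671 ± 0.137 in larvae. One line stood alone in larvae: DGRP832 had 524 and 388 CPM in adults and 537 and 575 CPM in larvae, and the next larval line mean, of DGRP491, was 364 CPM. The lowest larval line was DGRP217, with 270 and 273 CPM in adults and 152.5 and 144 CPM in larvae. In adults the highest line was DGRP239, with 472 and 446 CPM in adults and 264 and 268 CPM in larvae. The lowest was DGRP149, with 243 and 223 CPM in adults and 269 and 263 CPM in larvae, so its larvae lay above its adults.

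Tps1 had a heritability of 0.536 ± 0.104 in adults and 0.405 ± 0.136 in larvae. DGRP897 was the highest adult line, with 1836 and 1725 CPM in adults and 327 and 453 CPM in larvae, where the last value is from a library labelled DGRP897 that matched DGRP882. DGRP158 was the lowest adult line, with 874 and 874 CPM in adults and 176 and 261 CPM in larvae. In larvae the highest line was DGRP356, with 1234 and 1492 CPM in adults and 416.5 and 476 CPM in larvae, and the lowest was DGRP57, with 1451 and 1207 CPM in adults and 113 and 182 CPM in larvae.

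UGP had a heritability of 0.519 ± 0.108 in adults and 0.638 ± 0.086 in larvae. DGRP45, the highest line for larval Treh, was also the highest for larval UGP, with 934 and 835 CPM in adults and 357 and 292 CPM in larvae. DGRP217 was the lowest for larval UGP, with 478 and 540.4 CPM in adults and 130 and 122 CPM in larvae. DGRP153 was the highest in adults, with 1090 and 771 CPM in adults and 185.5 and 208 CPM in larvae. DGRP357 was the lowest in adults for UGP as for Treh, with 414 and 299 CPM in adults and 215.5 and 227 CPM in larvae.

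GlyS had a heritability of 0.412 ± 0.117 in adults and 0.460 ± 0.126 in larvae, and GlyP of 0.585 ± 0.135 in adults and 0.355 ± 0.120 in larvae. The same line was at the top for both genes within each stage. DGRP832 was highest in adults, with GlyS at 460 and 257 CPM in adults and 285 and 253 CPM in larvae. GlyP in DGRP832 stood at 1040 and 881 CPM in adults and 1282 and 1275 CPM in larvae. DGRP158 was highest in larvae, with GlyS at 190 and 180.1 CPM in adults and 287 and 288 CPM in larvae. GlyP in DGRP158 stood at 453 and 481 CPM in adults and 1792 and 1784 CPM in larvae, so this line was at the top of the larval range and below the median of the adult range.

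The lowest lines for GlyS were DGRP356 in adults, with 139 and 181 CPM in adults and 249 and 303 CPM in larvae, and DGRP879 in larvae, with 196 and 259 CPM in adults and 147.5 and 142 CPM in larvae. The lowest for GlyP were DGRP804 in adults, with 455 and 355 CPM in adults and 726 and 1090 CPM in larvae, and DGRP379 in larvae, with 554 and 542 CPM in adults and 607 and 533 CPM in larvae. The highest single larval library of GlyP was of DGRP235, with 1083 and 714 CPM in adults and 2895 and 821 CPM in larvae, so its larval replicates lay far apart. Larval replicates of GlyP had an SD of 0.45 log2 within lines, beside 0.24 log2 in adults.

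AGBE had the lowest heritability of the 7 genes, at 0.327 ± 0.131 in adults and 0.294 ± 0.168 in larvae. In adults its line means ran from DGRP805, with 79.6 and 87.0 CPM in adults and 135 and 116 CPM in larvae, to DGRP879, with 144 and 202.5 CPM in adults and 105 and 120.3 CPM in larvae. In larvae the lowest was DGRP379, with 106 and 92.0 CPM in adults and 87.3 and 90.8 CPM in larvae. The highest was DGRP787, with 129 and 133 CPM in adults and 229 CPM in its remaining larval library. DGRP379 was lowest in larvae for GlyP and for AGBE.

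**Figure D3:**
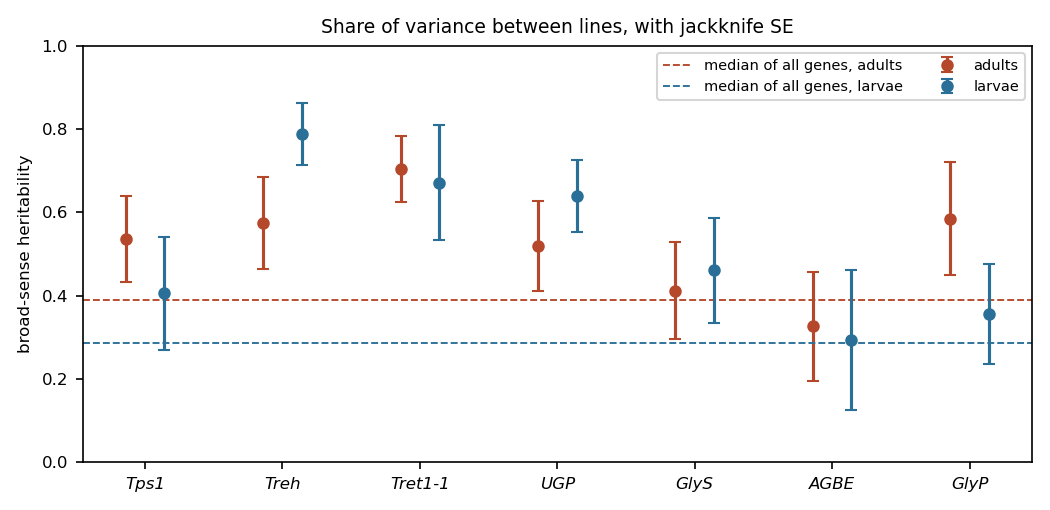
The vertical axis gives the broad-sense heritability of log2 CPM for each gene, adults left of larvae, with the jackknife SE over 41 lines as error bars and the median of all genes as dashed lines. Treh in larvae is highest at 0.788, and AGBE is lowest at 0.327 in adults and 0.294 in larvae.

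The adult over larva difference depended on the line for 6 of the 7 genes by the edgeR interaction test, where 43.1% of all genes passed. The adjusted p was 5.5e-08 for Treh, 1.7e-05 for Tret1-1, 1.7e-04 for UGP, 0.0047 for GlyP, 0.0064 for GlyS and 0.0205 for Tps1, and AGBE did not pass (adjusted p 0.175). DGRP356 had the lowest signed adult minus larva difference for 4 genes, at 1.61 log2 for Tps1, 0.56 for UGP, -0.79 for GlyS and -0.93 for AGBE. For GlyS and AGBE the larvae of DGRP356 thus lay above its adults, by more than in any other line. In that line UGP had 342 and 448 CPM in adults and 243 and 288 CPM in larvae. For Treh the difference ran from 0.49 log2 in DGRP45 to 2.39 log2 in DGRP149, the lines at the ends of the larval range. For GlyP it ran from -1.94 log2 in DGRP158 to 0.12 log2 in DGRP441.

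Whether lines kept their order from larva to adult was asked by correlating adult and larval line means, which bears on the genetic independence of the stages named in the title of the series. Over all libraries the 7 r values were positive and ran from 0.160 for GlyS to 0.455 for Treh, beside a median of 0.194 over all genes, of which 17.2% passed with a positive r. Treh was the 1 gene of the 7 that passed, with Pearson's r of 0.455 (permutation p 0.0029, adjusted p 0.0230) and Spearman's rho of 0.462 (permutation p 0.0026, adjusted p 0.0324) over 41 lines. Without DGRP45 and DGRP149, the lines farthest from the larval median, r was 0.419 (adjusted p 0.0747). DGRP804, low at both stages, was the line whose removal lowered r the most. Without it r was 0.403 (adjusted p 0.104), a fall that the choice of the line builds in. Without replicate 1 r was 0.426 (adjusted p 0.0541). With pool differences removed r was 0.423 (adjusted p 0.0420).

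The other genes did not pass. AGBE had r of 0.352 (permutation p 0.0238, adjusted p 0.0973; Spearman's rho 0.397, its p 0.0106), Tret1-1 had 0.336 (permutation p 0.0305, adjusted p 0.116; Spearman's rho 0.291, its p 0.0646) and Tps1 had 0.288 (permutation p 0.0675, adjusted p 0.200; Spearman's rho 0.243, its p 0.125). UGP had 0.180 (permutation p 0.260, adjusted p 0.476; Spearman's rho 0.117, its p 0.466), GlyP had 0.170 (permutation p 0.285, adjusted p 0.503; Spearman's rho 0.0953, its p 0.550) and GlyS had 0.160 (permutation p 0.319, adjusted p 0.536; Spearman's rho 0.1503, its p 0.346). For Tret1-1 the larval value of DGRP832 and several other lines stood apart. Over the 28 lines that lay close together its r was 0.677, a description with no test, since those lines were chosen by their position. Without replicate 1 the r of GlyP was -0.0753 and that of GlyS 0.0628. Over lines that lay close together, with no test, r was -0.0625 for Tps1 over 29 lines and -0.121 for UGP over 30 lines. Corrected for replicate error, the genetic correlation across stages was 0.577 ± 0.142 for Treh (jackknife SE), 0.463 ± 0.198 for Tps1 and 0.418 ± 0.163 for Tret1-1. It was 0.266 ± 0.394 for GlyS, 0.276 ± 0.277 for GlyP and 0.246 ± 0.210 for UGP, with an SE close to or above the value for GlyS and GlyP. For AGBE it was 0.772 ± 0.368, the gene with the lowest heritability of the 7 in both stages.

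**Figure D4:**
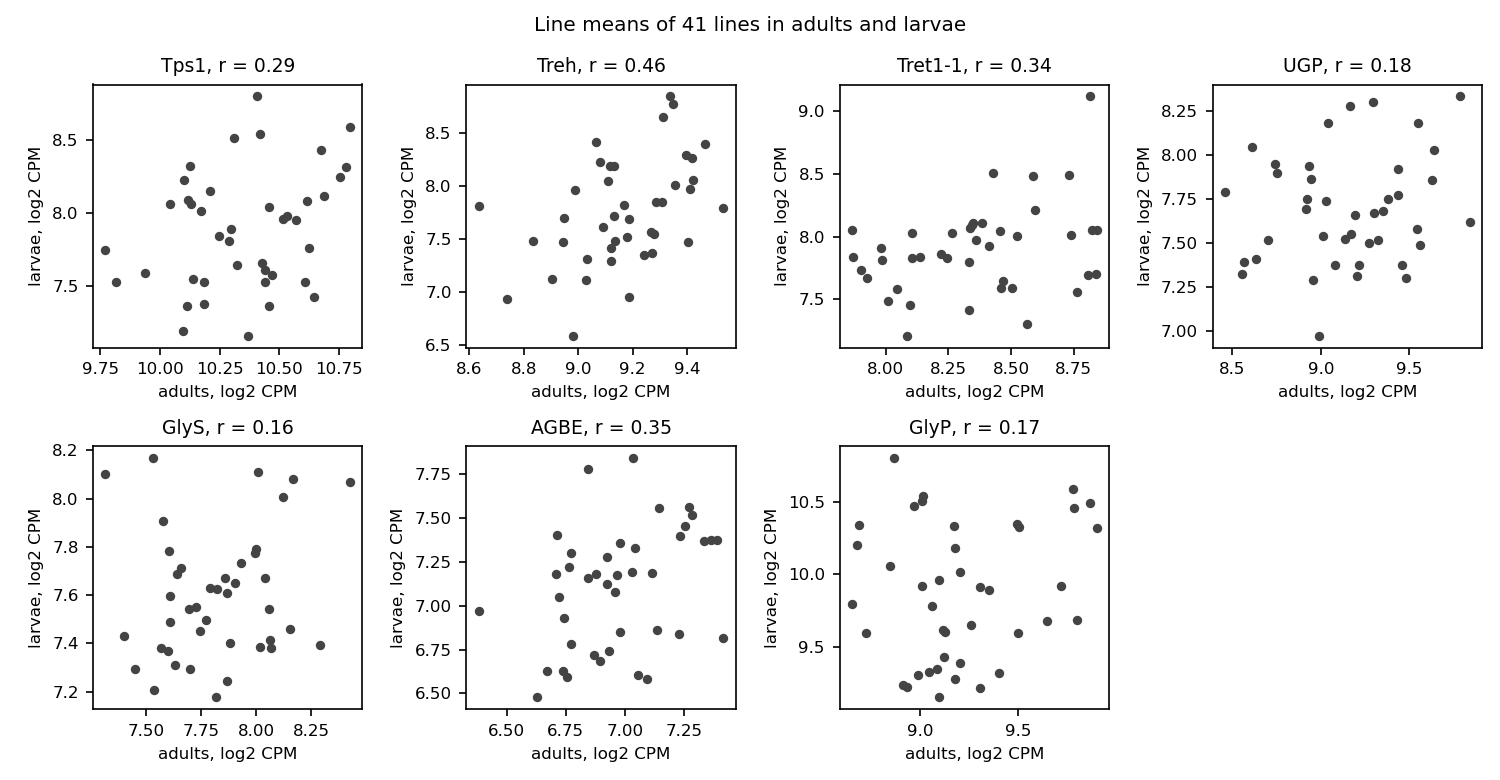
Each point is 1 of 41 lines, with the adult line mean of log2 CPM on the horizontal axis and the larval line mean on the vertical axis, and 1 panel for each gene. Treh shows the tightest relation (r 0.455), and in the panel of Tret1-1 the larval mean of DGRP832 stands above the other lines.

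Within a stage, line means of the 7 genes were compared with each other, and p-values were adjusted over the relations of each gene with every other gene of the table, taking the larger adjusted p of the pair. Of 21 pairs, 2 passed in adults and 5 in larvae. Over the relations of the 7 genes with every other gene, 0.817% passed in adults and 1.72% in larvae. GlyS was part of most pairs that passed. GlyS and GlyP varied together across lines, with r of 0.554 in adults (permutation p 2.2e-04, adjusted p 0.0485; Spearman's rho 0.555, its p 2.3e-04) and 0.765 in larvae (permutation p 1e-05, the smallest the permutations can give, adjusted p 0.0017; Spearman's rho 0.756, its p 1e-05). GlyS and UGP had r of 0.595 in adults (permutation p 8.0e-05, adjusted p 0.0312; Spearman's rho 0.562, its p 2.0e-04) and 0.618 in larvae (permutation p 2.0e-05, adjusted p 0.0445; Spearman's rho 0.545, its p 2.7e-04).

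In larvae GlyS and AGBE had r of 0.584 (permutation p 2.0e-05, adjusted p 0.0159; Spearman's rho 0.518, its p 6.0e-04), GlyP and AGBE had r of 0.586 (permutation p 1.4e-04, adjusted p 0.0140; Spearman's rho 0.549, its p 3.2e-04), and Tps1 and AGBE had r of 0.530 (permutation p 3.2e-04, adjusted p 0.0310; Spearman's rho 0.529, its p 4.4e-04). Without the 2 lines farthest from the median of the first gene of the pair, r was 0.582 in adults and 0.722 in larvae for GlyS and GlyP, 0.544 in adults and 0.515 in larvae for GlyS and UGP, and in larvae 0.575 for GlyS and AGBE, 0.525 for GlyP and AGBE and 0.430 for Tps1 and AGBE. With pool differences removed the same pairs passed, and in larvae Tps1 with Tret1-1 (r 0.527, adjusted p 0.0454) and GlyP with UGP (r 0.578, adjusted p 0.0318) passed as well. Tps1 and Tret1-1 had r of 0.509 in adults (adjusted p 0.0878) and 0.5001 in larvae (adjusted p 0.115) over all libraries. Treh passed with none of the other 6 genes, and its r with them ran from -0.162 to 0.249 in adults and from -0.0721 to 0.300 in larvae.

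**Figure D5:**
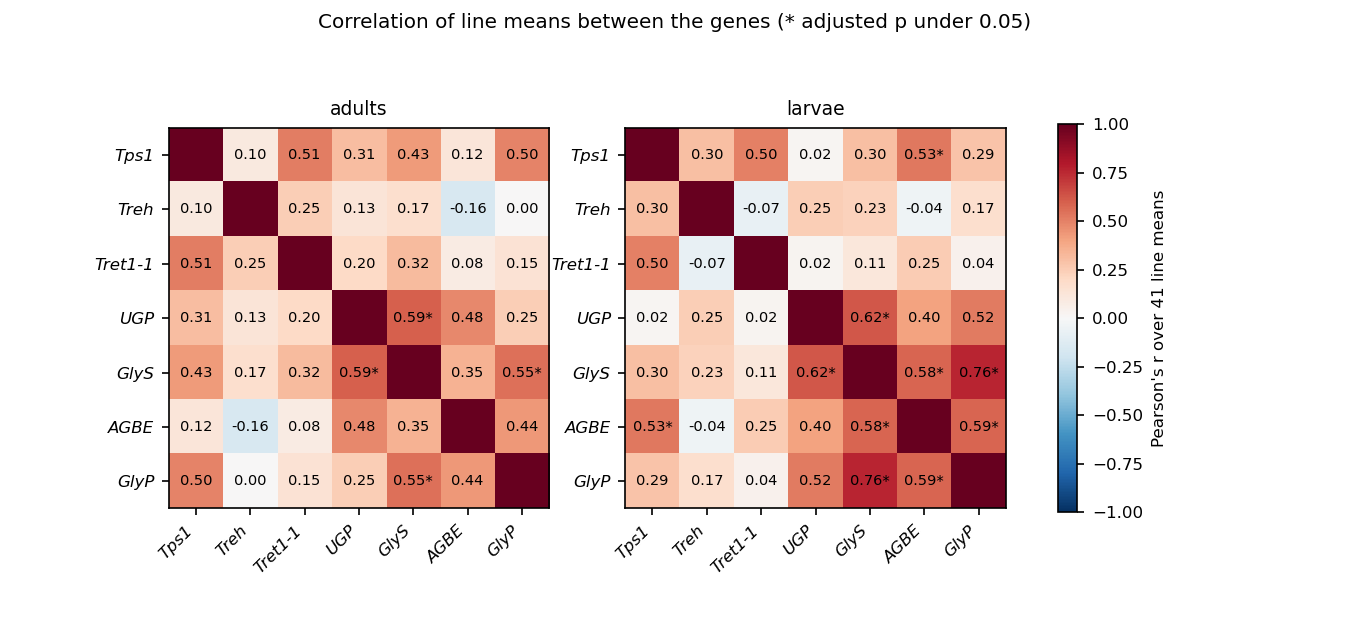
Each cell gives Pearson's r of 2 genes over 41 line means, adults on the left and larvae on the right, on a colour scale from -1 (blue) to 1 (red), with an asterisk where the adjusted p is under 0.05. The 5 pairs that passed in larvae all include GlyS or AGBE, with GlyS and GlyP highest at 0.765.

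The summed level of muscle markers passed with 1 of the 7 genes across adult lines and with 3 across larval lines. Each gene in the table was correlated with the summed level of each of 7 marker lists in each stage, and p was adjusted over all genes but the list's own. The 7 genes had 98 relations over both stages together, the same number in each stage. Of those in adults 4 passed, where 11.6% of the relations of all genes passed. Of those in larvae 5 passed, where 4.29% of the relations of all genes passed. For the muscle sum the share of all genes was 16.9% in adults and 3.47% in larvae. GlyP and the muscle sum had r of 0.413 in adults (permutation p 0.0069, adjusted p 0.0437; Spearman's rho 0.468, its p 0.0021) and 0.880 in larvae (permutation p 1e-05, the smallest that the permutations can give, adjusted p 7.8e-04; Spearman's rho 0.884, its p 1e-05). Without the 2 lines farthest from the median of the muscle sum, r was 0.351 in adults and 0.865 in larvae, and with pool differences removed 0.450 in adults and 0.885 in larvae. GlyS and the muscle sum had r of 0.279 in adults (permutation p 0.0757, adjusted p 0.211; Spearman's rho 0.322, its p 0.0408) and 0.776 in larvae (permutation p 1e-05, adjusted p 7.8e-04; Spearman's rho 0.790, its p 1e-05), and 0.725 in larvae without the 2 farthest lines. For UGP the r was -0.107 in adults, which did not pass, and 0.505 in larvae (permutation p 7.4e-04, adjusted p 0.0260; Spearman's rho 0.468, its p 0.0024), and 0.390 in larvae without the 2 farthest lines. For AGBE it was 0.0436 in adults and 0.455 in larvae (permutation p 0.0029, adjusted p 0.0706; Spearman's rho 0.389, its p 0.0128), and neither passed. The r was 0.188 in adults and 0.166 in larvae for Tps1, -0.0333 in adults and 0.231 in larvae for Treh, and 0.121 in adults and -0.0941 in larvae for Tret1-1, and none of these passed.

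With the muscle marker level removed from the line means by regression, an alternative chosen after seeing the data, 1 pair of the 7 genes passed in adults and 1 in larvae. GlyS and GlyP then had r of 0.502 in adults (adjusted p 0.329) and 0.273 in larvae (adjusted p 0.935). GlyS and UGP had r of 0.654 in adults (adjusted p 0.0247) and 0.414 in larvae (adjusted p 0.723). Tps1 and AGBE, the pair of larvae that passed, had r of 0.517 (adjusted p 0.0244). The part that muscle content has in these relations was not tested further.

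Other marker sums passed with single genes. The hemocyte sum passed with 19.8% of all genes in adults and 2.17% in larvae. By mean level Col4a1 (522 CPM) and vkg (280 CPM) made up most of it in larvae, beside 113 for Hml and 31.5 for NimC1. The larval sum thus mostly follows Col4a1 and vkg, and which tissue their RNA came from was not tested. In adults the hemocyte sum had r of 0.577 with Tps1 (permutation p 4.0e-05, adjusted p 0.00108; Spearman's rho 0.599, its p 3.0e-05) and 0.448 with GlyP (permutation p 0.0034, adjusted p 0.0236; Spearman's rho 0.397, its p 0.0108). In larvae it had r of 0.629 with Tret1-1 (permutation p 8.0e-05, adjusted p 0.0202; Spearman's rho 0.432, its p 0.0051) and 0.528 with GlyS (permutation p 4.2e-04, adjusted p 0.0383; Spearman's rho 0.549, its p 3.6e-04). Without the 2 farthest lines these 4 were 0.616, 0.346, 0.441 and 0.439. The male sum passed with 11.0% of all genes in adults and 1.54% in larvae, and in adults had r of -0.571 with Tret1-1 (permutation p 1.6e-04, adjusted p 0.00367; Spearman's rho -0.586, its p 1.1e-04), and -0.502 without the 2 farthest lines. The midgut sum passed with 1.31% of all genes in adults and 4.44% in larvae. In adults it had r of 0.487 with GlyS (permutation p 0.0011, adjusted p 0.0624; Spearman's rho 0.477, its p 0.0016), which did not pass, and with pool differences removed 0.507, which did (adjusted p 0.0466). The oenocyte sum passed with 2.69% of all genes in adults and 0.783% in larvae. By mean level Desat1 made up most of it in larvae (2533 CPM, beside 273 for Cyp4g1 and 26.8 for FASN2). In adults Cyp4g1 did (28094 CPM, beside 2883 for Desat1), so the larval sum mostly follows Desat1. In larvae the oenocyte sum had r of 0.476 with Tps1 (permutation p 0.0016, adjusted p 0.0780; Spearman's rho 0.448, its p 0.0036) and 0.448 with Tret1-1 (permutation p 0.0031, adjusted p 0.107; Spearman's rho 0.459, its p 0.0026). Neither passed, while both did with pool differences removed, at 0.514 for Tps1 (adjusted p 0.0343) and 0.521 for Tret1-1 (adjusted p 0.0299). Without the 3 larval libraries that matched other lines r was 0.465 for Tps1 and 0.363 for Tret1-1. Fat body and nervous system sums passed with none of the 7 genes in either stage. By mean level apolpp made up most of the fat body sum (3911 CPM in adults and 6258 CPM in larvae). FASN1 came next (2363 CPM in adults and 1364 CPM in larvae). Atpalpha made up most of the nervous system sum (1932 CPM in adults and 466 CPM in larvae). Each sum thus mostly follows these markers. Of all genes, 0.0% passed with the fat body sum in adults and 7.68% in larvae, and 29.4% with the nervous system sum in adults and 9.97% in larvae. With pool differences removed, the nervous system sum passed with GlyP in adults (r 0.418, adjusted p 0.0273). The parts that these tissues have in the line differences were not tested.

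For each gene the most alike genes were those with the highest r of line means in both stages, ranked by the lower of the 2 r values over 41 lines. For GlyS the first was PyK, the pyruvate kinase gene, with r of 0.716 in adults (adjusted p 0.0270) and 0.721 in larvae (adjusted p 0.0017). It was followed by UGP and by Argk1, the arginine kinase gene, with r of 0.568 in adults and 0.592 in larvae. For GlyP they were GlyS, PyK and Actn, which encodes the sarcomere protein alpha-actinin, with r of 0.509 in adults (adjusted p 0.0842) and 0.862 in larvae (adjusted p 0.0010). For UGP they were Pgi, the phosphoglucose isomerase gene, with r of 0.637 in adults (adjusted p 0.0064) and 0.649 in larvae (adjusted p 0.0371), Gapdh2, a glyceraldehyde-3-phosphate dehydrogenase gene, with 0.718 in adults and 0.629 in larvae, and GlyS. For AGBE they were the enolase gene Eno, with 0.576 in adults (adjusted p 0.139) and 0.621 in larvae (adjusted p 0.0117), then Pgi and the fructose-1,6-bisphosphatase gene fbp.

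For Tps1 the most alike genes were Coq8, CG31145 and the debranching enzyme gene CG9485, with r from 0.535 to 0.567 in adults and from 0.514 to 0.567 in larvae, and these passed in larvae and not in adults. For Tret1-1 they were CG9485, the acetyl-CoA carboxylase gene ACC and the chondroitin synthase gene Chsy, with r from 0.527 to 0.574 in adults and from 0.508 to 0.598 in larvae, and these passed in adults and not in larvae. For Treh they were hoka and mesh, which encode proteins of the smooth septate junctions of the gut, and Cdc50, with r from 0.415 to 0.439 in adults (adjusted p 0.732) and from 0.439 to 0.448 in larvae (adjusted p 0.402), so none of the 3 passed in either stage.

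Some lines stood near the same end of the range for several genes. In adults DGRP832 was among the 5 highest lines for 4 of the 7 genes and DGRP360 for 4, and DGRP367 was among the 5 lowest for 4. In larvae DGRP158 and DGRP832 were each among the 5 highest for 4 genes, DGRP57 was among the 5 lowest for 5, and DGRP379 for 4. DGRP491 was among the 5 highest larval lines for Tps1, Treh and Tret1-1 and among the 5 lowest for GlyP, AGBE and UGP, with 1 larval library left in that line. These ranks are a description, and no test was made on them.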

How the data were processed

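Whole-body RNA of adults and larvae was sequenced from polyA-selected, stranded libraries. Raw counts of 7414 genes in 164 libraries were deposited, with replicates kept apart. FastQC, Trimmomatic, STAR and the builds BDGP6 and dm6 are named per the submitters' processing notes, and the counting tool is not given in the sources used here. Gene positions came from the Ensembl BDGP6 annotation, in which 7349 identifiers were found. The lowest count in the table was 11.

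The 7 genes and the gene lists were chosen with earlier results of these data known, so a pattern those results already show is not independent support. Groups, lines and replicates came from the labels. Nothing says that replicates were independent beyond separate vials, so p-values measure the spread between these samples.

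Counts were tested in edgeR 4.0.16 (R 4.3.3) with TMM factors, quasi-likelihood F tests and line as a block for stage, over all 7414 genes. At least 2-fold differences were tested with glmTreat. The Benjamini-Hochberg adjustment was applied over the table with a threshold of 0.05. The steps recovered planted stage changes in simulated counts that held no line or pool effects, so error rates under such effects were not tested. Line means were averages of log2 CPM (prior count 2), tested with 100000 two-sided permutations of the lines in Python 3.11.15 with numpy 2.4.6 and numba 0.67.0. Lines that lay close together were found by single linkage at a distance of 0.15 of the range. DESeq2 1.42.0 and limma 3.58.1 served in alternatives. SEs of fold changes are the fold change over the root of F. The stage model counted each library as a unit and held no line-by-stage term. Its SEs and p-values may therefore be too small where the stage difference varies between lines.

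Named genes were all 7 genes, in each other list the 3 with the largest stage change together with Pgm1, CG5171, CG5177 and CG9485, for each gene the 3 most alike genes, and the lines with the lowest and highest mean. Some markers were also named to describe what makes up a summed level.

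Replicate numbers were not used to pair adults with larvae. Over 39 lines with 4 libraries, the correlation of replicate deviations across genes ran from -0.371 to 0.304, with a median of 0.049. It was over 0.1 in 14 lines, and a weak correlation cannot exclude that the numbers were paired in rearing or handling.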

Additional observations from a re-analysis of the deposited data

Results flagged for a closer look

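For 6 of the 7 genes the differences between lines were not the same in adults and larvae, by the edgeR interaction test adjusted over 7414 genes. The adjusted p was 5.5e-08 for Treh, 1.7e-05 for Tret1-1, 1.7e-04 for UGP, 0.0047 for GlyP, 0.0064 for GlyS and 0.0205 for Tps1. Of all genes 43.1% passed the same test. Each of the 6 also passed without the 3 larval libraries that matched other lines, with roX1 as a covariate, with replicate number as a block and with DESeq2 size factors.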

How the results depend on the processing

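The stage differences of Tps1, Treh, Tret1-1, UGP, GlyS and GlyP kept their direction and their call under each alternative run: DESeq2 size factors, the DESeq2 Wald test, a filter of 10 CPM, each replicate left out, replicate block, no line block, all 164 columns, no 3 larval libraries, roX1 as a covariate and pools as replicates. The filter of 1 CPM removed 0 genes and gave no separate fit. AGBE lost its call with pools as replicates (-0.087, adjusted p 0.272 by limma), and with 1 replicate left out it ran from -0.25 to -0.016. With the replicate block the log2 fold change of AGBE was -0.14 and that of UGP 1.46, and the block changed no call on the 7 genes. Genes of the 7 that passed across stages numbered 1 over all lines and ran from 0 to 1 with 1 replicate left out. The number was 0 when the 2 lines with larval means farthest from the median were left out and 0 without the most influential line, while 1 gene, Treh, kept an unadjusted permutation p under 0.05 in both. With muscle marker level removed, 1 pair passed in adults and 1 in larvae. Over the table, 3453 genes differed between larval lines and 2288 with pool as a factor. Across stages 1274 genes passed, and 777 by Spearman's rho, 804 without replicate 1, 620 without replicate 2, 666 without the 2 farthest lines and 517 without the most influential line. The most influential line of a gene was the one whose removal weakened its r the most, so a lower number there follows from that choice. Fewer samples enter where a replicate or a line is left out. The causes of the other changes were not tested.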
